A study of Rattus norvegicus with 6 samples.

Results

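Tiles that were both rich in CpGs and methylated were analyzed in WGBS data from the hippocampi of rat pups at postnatal day 15. The autosomes, chromosomes 1 to 20 of the rn4 build, were divided into tiles of 1000 nucleotides (1 kb). A tile was usable if each of the 6 samples had at least 50 reads over its CpGs. Members were selected on measured values, namely at least 30 distinct CpGs listed in any sample and a pooled methylation level of at least 80%. The methylation level is the number of methylated reads divided by the coverage, and the pooled level sums both over the 6 samples. A read was counted at each CpG it covers, so the reads of a tile are summed over its CpGs. This gave 9297 tiles with 324709 CpGs, which is 0.654% of the 1421817 usable tiles and 24.7% of the 37604 usable tiles with at least 30 CpGs. The other CpG-dense tiles comprised 21068 unmethylated tiles (pooled level below 20%) and 7239 intermediate ones (20% to 80%). Because the rule used the CpG count and the methylation level, the high level of the members is a description and not a result.

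The study compared 3 iron-deficient with 3 iron-sufficient Sprague-Dawley pups, with 1 hippocampal library per pup. The study's methods call the stock CD1 Sprague-Dawley. Iron-deficient pups had dams on 4 ppm dietary iron from gestational day 2, which changed to 200 ppm at postnatal day 7. Iron-sufficient pups had dams on 200 ppm throughout. All 6 were collected at postnatal day 15, so both groups were on the same maternal diet for the last days. The sex and litter of the pups, and the cell types in the tissue, are not given in the labels. Coverage summed over all listed CpGs, with a read counted at each CpG it covers, ranged from 432692526 to 780127386. Median coverage per CpG ranged from 17 to 33. Iron-sufficient replicate 2 had reads on 76.9% of the members' CpGs, against 87.1% to 97.1% in the other 5 libraries, and the results that leaving it out moves most are also given without it.

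In mammals, DNA methylation is placed almost entirely on cytosines followed by guanine. A methylated cytosine readily mutates to thymine, so CpGs were lost from most of the genome in which germ cells are methylated, and the CpG-dense stretches that remain, the CpG islands, are mostly unmethylated and lie at promoters. Methylated CpG islands are the exception. Well known examples are promoters of genes used only in germ cells, which are methylated around implantation and stay so in somatic tissue, islands inside genes, and young or tandem repeats. In somatic cells the promoters of germ cell genes are bound by the MGA and MAX proteins, which recognize the E-box CACGTG, and by E2F6, which recognizes sites such as GCGGGAA.

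Genes were placed on the files without an annotation of rn4. The distances between successive CpGs of each RefSeq promoter (GRCr8 build, 250 bases before to 50 after the start) were searched for in the CpG positions of the files. A promoter was placed if at least 10 successive distances matched at a single place on its own chromosome and at least 80% of its CpGs were listed there. Of 33469 promoters, 13064 had enough CpGs, and 10953 were placed on chromosomes 1 to 20. Their start lay in an unmethylated CpG-dense tile in 9267 cases, in an intermediate one in 291 and in a member in 141. The 141 starts belonged to 124 genes in 123 tiles, and 59 of these genes have a name rather than a locus number. Placed starts were found in 1.32% of the members, 3.25% of the intermediate and 36.6% of the unmethylated CpG-dense tiles. The remaining members have no placed start, which does not show that no gene starts there.

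Among the 59 named genes, 29 are on a list of 87 germ cell genes that was compiled by hand after placed genes had been seen, so the count is a description. The 6 promoters below are shown as examples of the sequence before a start that lies in a member, from 3 groups of germ cell function. The bases before a start can reach into the neighbouring tile. Each is the 250 bases before the RefSeq start on the gene's strand, 5′ to 3′, in the GRCr8 build, with CpGs in capitals. Dazl (chr9:18193113-18193362, plus strand) encodes an RNA-binding protein that controls translation in germ cells. Rec8 (chr15:33079568-33079817, plus strand) encodes the meiotic cohesin, and Sycp1 (chr2:193145181-193145430, minus strand) a structural protein of the synaptonemal complex. Tdrd1 (chr1:265880775-265881024, plus strand) and Mael (chr13:81029624-81029873, minus strand) act in the piRNA pathway, which silences transposons in the germ line. Stk31 (chr4:79701491-79701740, plus strand) encodes a germ cell protein with a tudor and a kinase domain. The stretches hold 23 CpGs in Dazl, 17 in Rec8, 11 in Sycp1, 22 in Tdrd1, 16 in Mael and 21 in Stk31.
Dazl: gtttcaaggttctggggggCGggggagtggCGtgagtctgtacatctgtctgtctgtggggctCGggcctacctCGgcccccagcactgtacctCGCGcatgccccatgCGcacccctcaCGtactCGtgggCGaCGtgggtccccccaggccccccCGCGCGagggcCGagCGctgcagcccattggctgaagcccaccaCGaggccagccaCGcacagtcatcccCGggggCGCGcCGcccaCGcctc
Rec8: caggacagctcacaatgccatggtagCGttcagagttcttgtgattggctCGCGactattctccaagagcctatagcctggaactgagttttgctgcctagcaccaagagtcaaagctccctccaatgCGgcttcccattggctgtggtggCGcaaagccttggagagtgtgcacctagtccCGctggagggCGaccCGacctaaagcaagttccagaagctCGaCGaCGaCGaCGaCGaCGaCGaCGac
Sycp1: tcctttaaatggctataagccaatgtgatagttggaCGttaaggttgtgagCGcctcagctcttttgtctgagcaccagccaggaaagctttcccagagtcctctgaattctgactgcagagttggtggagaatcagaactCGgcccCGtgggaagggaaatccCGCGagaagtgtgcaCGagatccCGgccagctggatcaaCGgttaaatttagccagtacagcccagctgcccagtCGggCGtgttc
Tdrd1: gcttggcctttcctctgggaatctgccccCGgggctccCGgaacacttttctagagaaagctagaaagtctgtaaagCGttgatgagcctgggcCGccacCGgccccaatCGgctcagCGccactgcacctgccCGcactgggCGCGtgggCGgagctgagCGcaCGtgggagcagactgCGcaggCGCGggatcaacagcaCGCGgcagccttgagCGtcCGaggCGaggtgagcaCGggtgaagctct
Mael: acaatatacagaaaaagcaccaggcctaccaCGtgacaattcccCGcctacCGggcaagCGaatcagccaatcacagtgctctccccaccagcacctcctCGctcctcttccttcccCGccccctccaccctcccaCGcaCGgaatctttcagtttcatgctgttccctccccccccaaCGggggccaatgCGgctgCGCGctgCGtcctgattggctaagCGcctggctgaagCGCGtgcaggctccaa
Stk31: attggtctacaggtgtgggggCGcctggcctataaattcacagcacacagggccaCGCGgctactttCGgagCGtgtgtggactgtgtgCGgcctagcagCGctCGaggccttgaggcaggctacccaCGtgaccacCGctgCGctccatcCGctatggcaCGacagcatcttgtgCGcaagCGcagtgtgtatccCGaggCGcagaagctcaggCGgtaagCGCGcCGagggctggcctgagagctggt

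Every one of these promoters was methylated in all 6 hippocampi. Methylation over the CpGs of the whole 300-base Dazl promoter was 79.9%, 96.9% and 81.6% in iron-sufficient replicates 1, 2 and 3, and 83.5%, 91.4% and 90.05% in iron-deficient replicates 1, 2 and 3. The Rec8 promoter was at 73.6%, 78.7% and 96.4% in the iron-sufficient and at 79.6%, 97.1% and 86.4% in the iron-deficient pups. Both promoters varied by over 10 percentage points between animals of a group, and their groups overlapped. The Sycp1 promoter was at 91.8%, 100% and 87.1% against 92.1%, 100% and 91.8%. The Tdrd1 promoter was at 84.7%, 94.2% and 93.6% against 94.4%, 98.3% and 94.8%. Every iron-deficient value of Tdrd1 was above every iron-sufficient one, with group means of 90.9% ± 5.31 and 95.8% ± 2.17 (SD, n = 3 each). The nearest values were 94.24% and 94.44%, and the difference of 4.99 points was 1.93 without iron-sufficient replicate 1. The Mael promoter was at 89.0%, 80% and 87.1% against 82.3%, 72.8% and 90.01%. The Stk31 promoter was at 95.5%, 100% and 90.4% against 100%, 97.8% and 98.0%. The values of Mael and Stk31 overlapped between the groups.

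The 29 germ cell promoters covered each part of the list. A gene with several placed starts was counted in a member if any of them lay in one, even where another start did not. Of 24 placed genes of the meiotic chromosome axis, synapsis and recombination, 9 started in a member. They were Sycp1 and Sycp3, structural proteins of the synaptonemal complex, Tex12 and Six6os1 of its central element, Rec8, Hormad1 of the chromosome axis, Hsf2bp and Redic1 of recombination, and Terb1, which ties telomeres to the nuclear envelope. Of 16 placed piRNA genes, 8 started in a member, namely Asz1, Btbd18, Fkbp6, Mael, Mov10l1, Pnldc1, Stk31 and Tdrd1. Of the 18 other placed germ cell genes, 12 did. These include Dazl, the transcription factor Sohlh2, the bromodomain protein Brdt, the testis histone H2bc1, the testis pyruvate dehydrogenase subunit Pdha2, the sperm ADP/ATP carrier Slc25a31, the testis tubulin Tuba3a and the acrosomal proteins Spaca1 and Spesp1. The remaining 3 are Adad2, Naa11 and Pabpc2. Pooled methylation over the 300 bases ranged from 76.2% (Six6os1) to 98.0% (Sohlh2), with a median of 87.6%.

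**Figure D1:**
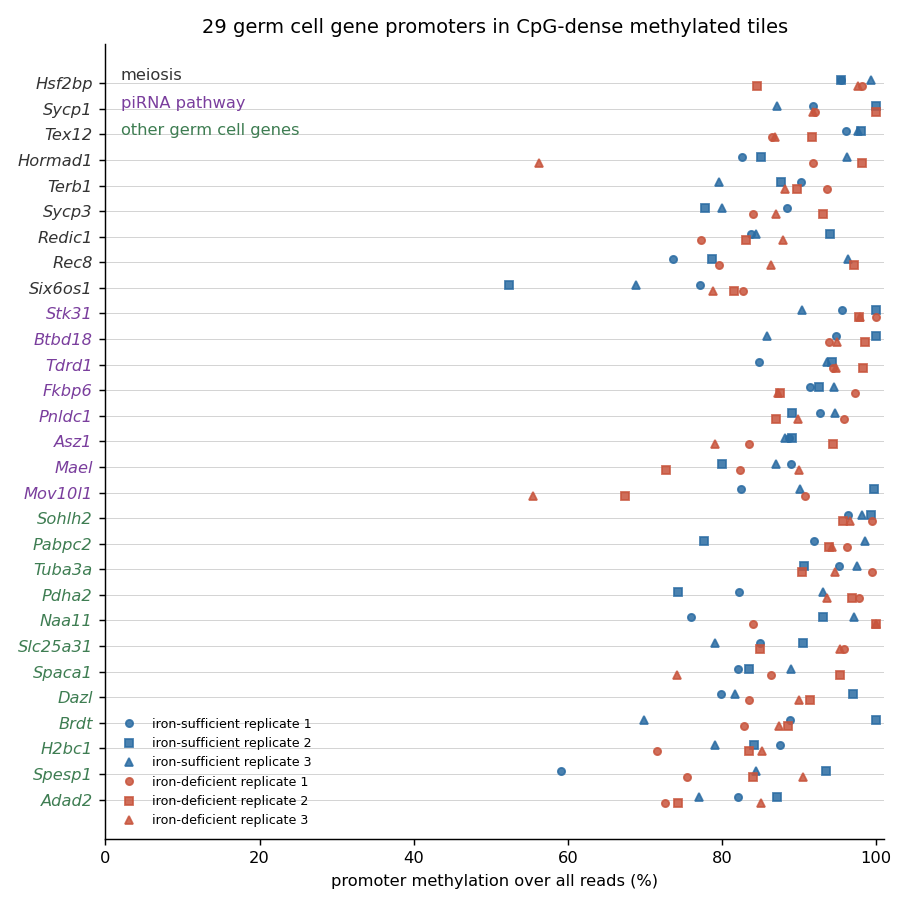
Methylation of 29 germ cell promoters in each animal, with 1 row per gene and methylation over all reads of the promoter (%) on the x axis. Blue symbols are iron-sufficient and red symbols iron-deficient replicates, and gene labels are colored by role. Most values lie above 70%, and the lowest is 52.3% for Six6os1 in iron-sufficient replicate 2.

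Not all germ cell promoters with many CpGs were methylated. Each gene was counted by 1 start, with a start in a member taken first, which favors the count in members. Of the 58 genes placed, 8 started in intermediate and 12 in unmethylated CpG-dense tiles, and 9 in other tiles. Counted by the promoter itself, 32 were at 80% or more, 12 between 20% and 80% and 14 below 20%. Among the unmethylated ones, the Prdm9 promoter, whose gene directs recombination hotspots, was at 2.00% ± 1.16 in iron-sufficient and 4.66% ± 5.93 in iron-deficient pups (SD, n = 3 each). The promoter of Smc1b, the partner of Rec8 in meiotic cohesin, was at 3.20% ± 0.346 and 7.35% ± 3.96, at the opposite end of the range from Rec8. The promoter of Tdrd6, a tudor protein related to Tdrd1, was at 1.58% ± 0.440 and 2.23% ± 1.51. Other promoters were methylated but lay in a tile that missed the rule. The Ddx4 promoter, of the germ cell RNA helicase, was at 92.1% ± 3.17 and 93.0% ± 2.98, but its tile holds 26 CpGs. The tile of Adad1 was at 79.0%, and its promoter at a pooled 73.1%.

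Over the 29 promoters pooled, methylation was 85.5%, 91.4% and 88.0% in the iron-sufficient and 88.9%, 90.4% and 88.3% in the iron-deficient pups. The iron-sufficient values enclosed all iron-deficient ones, but without iron-sufficient replicate 2 the others lay below all of them. Single promoters went both ways. The largest difference of the 29 was in Mov10l1, at 82.4%, 99.8% and 90.2% against 90.7%, 67.5% and 55.5%. It was -19.6 points with overlapping groups, and -15.1 without iron-sufficient replicate 2. The groups did not overlap in 3 of the 29 with iron-deficient values higher (Pdha2, Six6os1 and Tdrd1) and in 1 with iron-deficient values lower, while among all tested tiles 6.05% and 4.03% did not overlap. Without iron-sufficient replicate 2, the difference went from 12.87 to 8.395 points in Pdha2, from 14.93 to 8.03 in Six6os1 and from 4.99 to 6.68 in Tdrd1. The 1 lower promoter was Tex12, at 96.0%, 98.0% and 97.6% against 86.5%, 91.7% and 86.9%, a difference of -8.86 percentage points. The means of the 29 promoters pooled were 88.3% ± 2.92 and 89.2% ± 1.09 (SD, n = 3 each), a difference of 0.929 percentage points. This pooled difference was 2.45 points without iron-sufficient replicate 2 and 0.322 without iron-deficient replicate 2. Without iron-sufficient replicate 1 the pooled difference was -0.460, so that single libraries decide its size and sign. The 30 other named genes gave 87.4% ± 3.01 and 88.5% ± 2.10, and the 65 locus numbers 90.5% ± 1.08 and 90.9% ± 0.879. The difference in the 30 other named genes, 1.17 points, turned to -0.392 without iron-sufficient replicate 2 and to -0.0383 without iron-deficient replicate 2. In the locus numbers it was 0.387 points and ranged from -0.1 to 0.992 with 1 library left out, the lowest without iron-deficient replicate 2 and the highest without iron-sufficient replicate 3. The 30 others are not free of genes used in testis or meiosis, such as Syce1l, a relative of a synaptonemal complex protein, and the testis proteases Adam30 and Prss44, since they are defined only by not being on the list. They also comprise genes with a known use in other tissues, such as Scn10a, a sodium channel of sensory neurons (85.7% ± 11.1 and 89.7% ± 5.72), and Crygc, a lens crystallin (69.8% ± 36.2 and 82.3% ± 9.42). Without iron-sufficient replicate 2 the differences turned from 3.98 to -1.79 points in Scn10a and from 12.5 to -8.16 points in Crygc. Crygc was at 28.6% in iron-sufficient replicate 2 and at 84.5% and 96.3% in the other 2 iron-sufficient replicates. Of the 30, 29 had reads in all 6 samples, and Fbxo6 had none in iron-sufficient replicate 2. The groups did not overlap in 3 of the 29 with iron-deficient values lower (Prss44, Tenm3 and Tnnt2) and in 1 with iron-deficient values higher (Ube2d2b). The Prss44 promoter was at 93.5%, 100% and 91.7% against 80.4%, 81.2% and 73.8%, a difference of -16.6 points. Tnnt2, which encodes cardiac troponin T, had a promoter at 86.3%, 87.5% and 86.9% in iron-sufficient and at 75.3%, 72.7% and 74.6% in iron-deficient pups. These genes were picked after their values were seen, and the difference of -12.7 points in Tnnt2 is, like the others, given without a test.

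The E-box CACGTG, searched for in the 300 bases, occurred in 15 of the 29 germ cell promoters in members (51.7%). Of the germ cell promoters placed outside members, 8 of 29 held it (27.6%). It occurred in 1 of the 30 other named genes there (3.33%) and in 8 of the 65 locus numbers (12.3%). It is a palindrome, so both strands are covered. Of all placed promoters 10.7% hold it, and of all promoters of the table, with 1 per gene, 6.65%. In the sequences above it lies in Tdrd1, Mael and Stk31. GCGGGAA, searched for on both strands, occurred in 5 of the 29 (17.2%) and in 10 of the 29 germ cell promoters placed outside members (34.5%). It occurred in 2 of the 30 other named genes in members (6.67%), in 2 of the 65 locus numbers (3.08%), in 9.30% of the placed and in 4.47% of all promoters. CACGTG was thus the more frequent in germ cell promoters in members, and GCGGGAA in those outside them, with no test of either. Both motifs hold a CpG, so a CpG-rich promoter has more places where they can occur.

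Most members lay apart from other CpG-dense tiles. Of the 9297 tiles, 74.6% had no other CpG-dense tile within 2 tiles, 17.1% had only another member there, 6.17% an intermediate tile, and 2.15% an unmethylated one. The members formed 8533 stretches, of which 92.8% were a single tile. The median distance to the nearest placed start was 70.9 kb, against 48.1 kb for intermediate, 0.946 kb for unmethylated CpG-dense tiles and 120 kb over all usable tiles. A start within 5 kb was found for 5.85% of members, 5.07% of all usable tiles, 12.1% of intermediate and 59.02% of unmethylated CpG-dense tiles. Only promoters with at least 11 CpGs could be placed, and 9267 of the 10953 placed starts lay in unmethylated CpG-dense tiles. The short distance of that class is thus in part set by the placement. By these starts, members were farther away than other CpG-dense tiles, but not than usable tiles at large. The members next to an unmethylated tile had a median pooled level of 87.7%, and those with no dense neighbour 89.2%.

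A typical member was a small, just CpG-dense stretch. The median was 33 CpGs (quartiles 31 and 37), 1726 members held exactly 30, and 292 held 50 or more. The median pooled level was 89.2% (quartiles 85.6% and 92.2%, highest 99.0%), with 2012 members under 85% and 604 at 95% or more. Just inside the limit, chr17:48582001-48583000, chr8:20693001-20694000 and chr9:104607001-104608000 had pooled levels of 80%, 80% and 80.003%, with values of single samples from 65.5% to 98.1%. Just outside it, chr6:133357001-133358000, chr16:47034001-47035000 and chr6:130060001-130061000 were at 79.997%, 79.993% and 79.991%, with values from 61.9% to 92.0%. Another 1310 CpG-dense tiles had pooled levels of 75% to 80%, and 2072 methylated tiles held 29 CpGs.

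Single CpGs of the members were mostly methylated too, which the rule in part sets since it pooled the same reads. Of the members' 324709 CpGs, 83822 were covered by 10 or more reads in all 6 samples, and of these 82.7% had a pooled level of 80% or more, 16.9% lay between 20% and 80%, and 0.430% were below 20%. In intermediate CpG-dense tiles the same shares were 21.8%, 55.7% and 22.5%. Among the CpGs with 10 or more reads in all 6 samples, those at 10% or less in one animal and at 90% or more in another made up 8.95% in members, 20.3% in intermediate, 1.71% in unmethylated and 10.8% in CpG-poor methylated tiles.

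Members were most frequent on chromosomes 20 and 12. Chromosome 20 held 16.8 and chromosome 12 held 16.02 members per 1000 usable tiles, and the other 18 autosomes between 4.05 (chromosome 2) and 8.74 (chromosome 7). CpG-dense tiles of any kind were also more frequent there, 1674 of 33849 usable tiles on chromosome 20 and 1817 of 34199 on chromosome 12. Over all autosomes they were 37604 of 1421817. Members were 34.1% of the CpG-dense tiles on chromosome 20 and 30.2% on chromosome 12. This share was 24.7% over all autosomes, 33.2% on chromosome 13 and lowest on chromosome 10, at 17.1%. The last 3 Mb of the chromosomes held 2.40% of the members and 2.28% of the usable tiles, without a test of the difference.

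**Figure D2:**
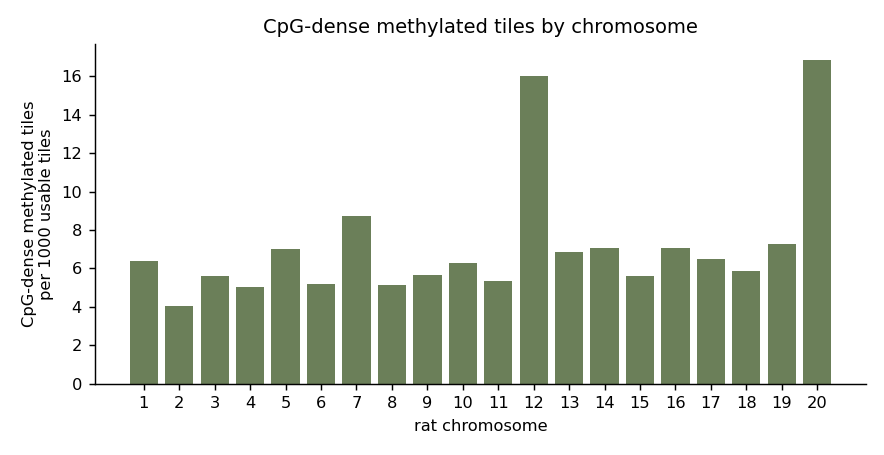
CpG-dense methylated tiles per 1000 usable tiles on each rat autosome, with the chromosome on the x axis and 1 bar per chromosome. Chromosomes 12 and 20 stand at 16.02 and 16.8, and the others between 4.05 and 8.74.

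A few stretches held many members. The megabase from 33 to 34 Mb of chromosome 1 held 58 members among its 65 CpG-dense tiles, and no placed promoter. The first megabase of chromosome 18 held 46 among 57. By contrast, 10 to 11 Mb of chromosome 7 held 46 members among 188 CpG-dense tiles and the placed starts of 36 genes, among them Eef2, Map2k2 and Oaz1. The longest run of adjacent members was chr7:114204001-114216000, 12 tiles with 597 CpGs. It was at 93.8%, 91.5% and 91.3% in iron-sufficient replicates 1, 2 and 3 and at 93.8%, 93.2% and 92.5% in the iron-deficient ones. Its tiles had 29.96 to 48.9 reads per CpG and sample (median 39.4), all above the median of all members (29.4). The next runs, chr1:33139001-33146000 and chr1:33147001-33154000, had 7 tiles each. The first was at 94.5%, 90.2% and 79.8% against 86.9%, 92.7% and 94.3%. The second was at 93.4%, 92.6% and 83.0% against 85.8%, 94.4% and 93.1%. In both, iron-sufficient replicate 3 and iron-deficient replicate 1 were the lowest, and the groups overlapped.

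The 5 members with the most CpGs held 88 to 116. The richest, chr1:46904001-46905000, had 116 CpGs and was at 75.6%, 71.2% and 86.5% against 84.7%, 83.8% and 77.2%. The nearest placed start was that of Tbxt, the mesoderm factor brachyury, 40137 nucleotides away. The others were chr20:45220001-45221000 with 110, chr9:84408001-84409000 with 100, chr8:4611001-4612000 with 90 and chr20:43264001-43265000 with 88 CpGs. Of these, only chr9:84408001-84409000 had groups that did not overlap, at 86.2%, 81.3% and 82.9% against 89.2%, 86.8% and 95.4%. That was not past the threshold (edgeR, adjusted p = 1, unadjusted p = 0.0944).

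Some members had CpGs at a regular spacing, as tandem repeats with a CpG in each unit have. A tile was called periodic if at least 50% of its CpGs were followed by another CpG at 1 fixed distance between 15 and 300 nucleotides. This held for 187 members (2.01%), 61 intermediate (0.843%) and 11 unmethylated CpG-dense tiles (0.0522%), although unmethylated tiles hold more CpGs (median 51 against 33). The most frequent distances were 18 nucleotides in 32 members on 13 chromosomes and 16 nucleotides in 19 members on 13 chromosomes. Distances under 15 nucleotides were not searched, so a distance found can be a multiple of a shorter unit. Members with a distance of 18 nucleotides had a median pooled level of 92.7% and a median coverage of 25.7 reads per CpG and sample. Those with a distance of 16 nucleotides had 87.0% and 23.6. The clearest case among the named tiles was chr20:43264001-43265000, with a distance of 19 nucleotides. It was at 88.1%, 96.5% and 89.2% in iron-sufficient and at 92.5%, 93.2% and 87.3% in iron-deficient replicates 1, 2 and 3, with overlapping groups.

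Other members shared a pattern of CpGs with distant members. A shared pattern was an identical run of 8 successive CpG distances, in either orientation, at tiles on other chromosomes or more than 10 kb apart. This was found in 1344 members (14.5%), in 87 intermediate tiles (1.202%) and in 1168 unmethylated CpG-dense tiles (5.54%). Copies of 1 sequence, such as interspersed repeats or segmental copies, leave such runs in a list of CpGs, but the files do not name the sequence, and no genome of this build was used to print it.

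The largest group held 25 members on 16 chromosomes, with successive distances of 7, 2, 3, 10, 16, 22, 7 and 15 nucleotides over 82 nucleotides in all. Its members had a median pooled level of 89.96% (range 81.5% to 97.4%). The same run occurred at 37 places outside members, with chromosome X searched too and no minimum of reads. Methylation there was 89.6%, 82.1% and 81.7% in iron-sufficient and 87.5%, 83.5% and 86.5% in iron-deficient replicates 1, 2 and 3. The rule, by CpG count and methylation, decided which places count as outside, so these values are not independent of it. Coverage per CpG was 17.2 reads per sample both inside and outside members. The second group held 18 members on 10 chromosomes and had 2 places outside, and the third held 17 members on 8 chromosomes and 90 places outside. Outside members the third run was at 90.8%, 86.6% and 88.7% against 89.5%, 88.7% and 91.5%. The fourth group, 16 members on 12 chromosomes, had 7 places outside at 80.7%, 81.4% and 72.9% in iron-sufficient and 88.4%, 95.2% and 94.4% in iron-deficient pups, so that the groups did not overlap there. These are few CpGs, chosen after the members, and no test was made. The fifth group held 15 members on 10 chromosomes. Over the 5 groups, methylation at the places outside members was 78.3% to 92.7% in the means of either diet. Over all reads of the usable tiles methylation was 67.6% and 68.4%, and the median usable tile had a pooled level of 80.9%, so that the lowest of the groups lay below that median.

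Around a member both CpG density and methylation fell within a few tiles. Because the tile itself was selected for both, the fall is in part set by the rule. Tiles next to a member, other members left out, held a median of 15 CpGs, and those 10 kb away 12. Methylation fell from 88.3% ± 0.329 in the members to 78.1% ± 0.372 in the preceding and 78.1% ± 0.213 in the following tile in iron-sufficient pups, and to 64.8% ± 0.0507 and 66.4% ± 0.443 at 10 kb (SD, n = 3). In iron-deficient pups it fell from 89.2% ± 0.406 to 78.9% ± 0.252 and 79.0% ± 0.331, and to 66.1% ± 0.864 and 67.4% ± 1.03 at 10 kb. CpG-poor methylated tiles, those with 5 to 10 CpGs and the same lower limit of methylation, served for comparison. Members were left out of the neighbours of both classes, but CpG-poor methylated tiles were not. Tiles of the own class were thus dropped around members only, so the neighbour sets compared here are not alike. Tiles next to members were 0.389 percentage points higher than tiles next to CpG-poor methylated ones, in the mean over the 6 samples and both sides (exact sign-flip permutation test, two-sided, p = 0.031, the smallest 6 samples can give). The size rests on which neighbours are counted. With reads pooled it was 0.0677 points for the preceding tile alone (higher in 3 of 6 samples, exact permutation p = 0.344) and 0.710 for the following tile alone (higher in 6 of 6, exact permutation p = 0.031). With each tile weighted alike it was 0.517 and 0.488 points (higher in 6 of 6 samples on both sides, exact permutation p = 0.031). With both sides pooled it was 1.32 points (exact permutation p = 0.031) if only neighbours with under 30 CpGs were taken, and 0.0587 points (exact permutation p = 0.3125) at a distance of 2 tiles. At 10 kb the surroundings of members were lower than those of CpG-poor methylated tiles, 64.8% and 66.4% against 69.3% and 69.2% in the iron-sufficient means.

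**Figure D3:**
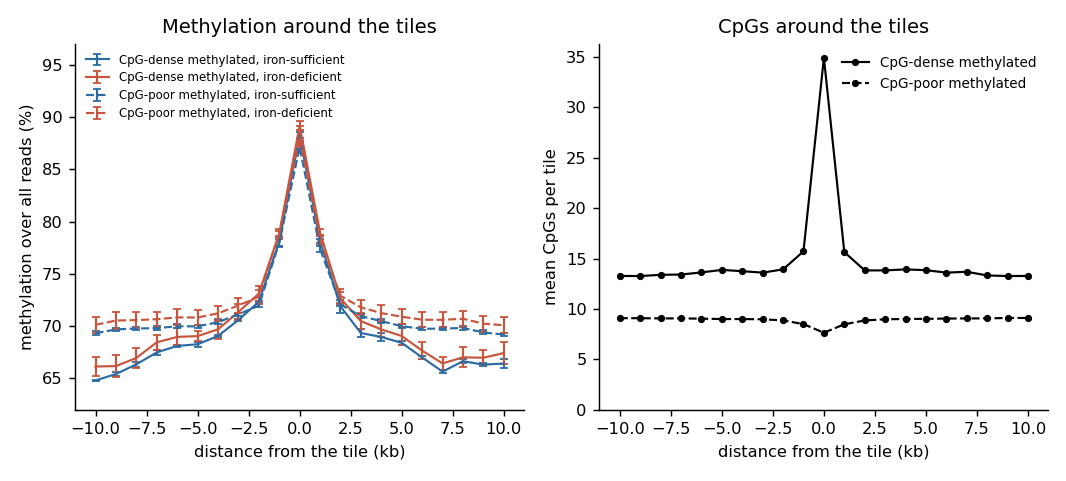
Left, methylation over all reads (%, mean and SD of 3 animals) in tiles up to 10 kb from CpG-dense methylated (solid) and CpG-poor methylated tiles (dashed), by diet. Right, the mean number of CpGs per tile. Methylation falls on both sides to about 78% in the adjacent tile, and the CpG count falls from 34.9 to below 16.

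Coverage per CpG in the members was 28.6, 23.1 and 37.6 reads in iron-sufficient and 35.5, 39.7 and 22.6 reads in iron-deficient replicates 1, 2 and 3. This was below the unmethylated CpG-dense tiles in every sample, by a mean log2 ratio of -0.49 (exact sign-flip permutation test, two-sided, p = 0.031). Against intermediate tiles the log2 ratio was -0.10 (exact permutation p = 0.031), and it was -0.054 without the 5% of tiles with the highest coverage in either class and -0.048 between medians over tiles (exact permutation p = 0.031 for both). Removing those 5% from the members alone, which can only lower the ratio, gave -0.23. Against CpG-poor methylated tiles, coverage per CpG was higher in 5 of 6 samples, by a log2 ratio of 0.22 (exact permutation p = 0.0625). The ratio was 0.16 without those 5% in either class (exact permutation p = 0.0625). It was 0.0915 without them in the members alone (exact permutation p = 0.125). The minimum of reads per tile demands more reads per CpG where CpGs are few, so these 2 classes were not filtered alike. The ratio between them is thus in part set by the rule. The libraries share the same tiles, so the permutation test shows only how far libraries agree and cannot separate out the filter. A small number of members had far more reads than the rest, 34 of them over 100 per CpG and sample. The highest were chr3:144001-145000 with 2511 reads per CpG and sample, chr20:25105001-25106000 with 2171, chr20:25103001-25104000 with 1414, chr20:25106001-25107000 with 1258 and chr16:27701001-27702000 with 1133. Such coverage is far above that of the genome at large, and methylation there is a mean over all reads placed on the tile. These tiles varied little between animals. The tile on chromosome 16 was at 82.7%, 83.7% and 83.6% against 83.8%, 83.1% and 83.4%, and chr20:25105001-25106000 at 89.2%, 87.7% and 87.5% against 87.3%, 85.03% and 86.0%.

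The comparison the study was designed for, between the diets, gave a difference of under 1 percentage point over the members as a whole. Pooled methylation in the members was 88.4%, 87.9% and 88.6% in iron-sufficient and 89.0%, 89.6% and 88.9% in iron-deficient replicates 1, 2 and 3. Every iron-deficient value was above every iron-sufficient value. The group means of 88.3% ± 0.329 and 89.2% ± 0.406 (SD, n = 3 each) differed by 0.885 percentage points (two-sided exact permutation test, p = 0.1, the smallest that 3 against 3 allows). The difference was 0.700 points without iron-sufficient replicate 2 (exact permutation p = 0.2). A difference of like size was seen in other methylated tiles. CpG-poor methylated tiles were at 87.1% ± 0.599 and 88.1% ± 1.09, a difference of 0.946 points (exact permutation p = 0.3). The 2 differences differed by -0.0605 points (exact permutation p = 1), and the sign of that value changed when iron-sufficient replicate 1 (0.307) or iron-deficient replicate 2 (0.332) was left out. Over all usable tiles the difference was 0.798 points (exact permutation p = 0.3). Where members had an unmethylated, an intermediate, another methylated or no dense neighbour, the difference was 0.908, 1.06, 0.779 and 0.918 points. On single chromosomes it ranged from 0.568 on chromosome 20 to 1.52 on chromosome 9.

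**Figure D4:**
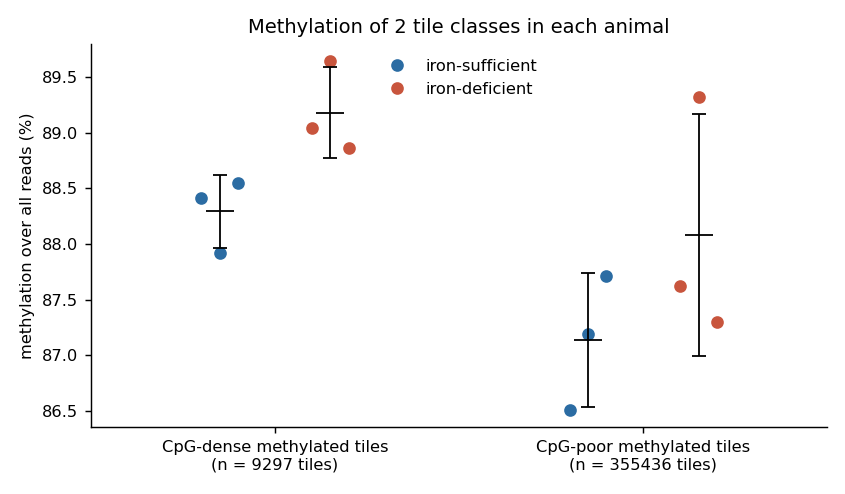
Methylation over all reads (%) in CpG-dense methylated and in CpG-poor methylated tiles, with 1 point per animal and the mean and SD of 3 animals as bars. The y axis does not start at 0. The diet groups do not overlap in the CpG-dense tiles (87.9% to 88.6% against 88.9% to 89.6%) and overlap in the CpG-poor ones.

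Tile by tile, no member was called between the diets. Of the 9297 members, 9173 had 5 or more CpGs with reads in each of the 6 samples and entered the test among 930539 tiles, and the other 124 were left out. With edgeR's quasi-likelihood test and Benjamini-Hochberg adjustment over all tiles, 0 members had an adjusted p of at most 0.05 and 0% of all tiles were called, and the smallest adjusted p of a member was 1. limma also called 0. At an unadjusted p under 0.05, edgeR gave 344 members (3.75%, with 3.03% of all tiles tested) and limma 171 (1.86%, with 4.08% of all tiles). The members' share was thus above the background in edgeR and below it in limma. In edgeR, 258 members were higher in iron-deficient pups (2.81%, with 1.97% of all tiles tested) and 86 were lower (0.938%, with 1.05% of all tiles). In limma, 130 were higher (1.42%, with 2.55% of all tiles) and 41 lower (0.447%, with 1.53% of all tiles). The groups did not overlap in 631 members with iron-deficient values higher (6.88%, background 6.05%) and in 303 with iron-deficient values lower (3.30%, background 4.03%). These shares are descriptions beside their backgrounds, and no test between members and other tiles was made.

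The spread between animals was smaller in members than in CpG-poor methylated tiles, which also hold fewer CpGs (median 8 against 33) and have fewer reads. Single CpGs at 10% or less in one animal and 90% or more in another, given above, made up 8.95% and 10.85%. The median SD over the 6 animals was 4.58 percentage points for members and 9.09 for CpG-poor methylated tiles. It was 9.46 for intermediate and 2.92 for unmethylated CpG-dense tiles. Counting error, with the CpGs of a read taken as independent, gives a median SD of 1.06 points in members and 2.52 points in CpG-poor methylated tiles. The median reads per sample, summed over CpGs, were 990 and 190. CpGs lie closer together in members, so a read can cover more of them and the counting error can be too small there. A difference of 10 points or more between the diet means was seen in 430 members (4.63%) against 23.7% of CpG-poor methylated and 27.1% of all usable tiles. These contrasts between tile classes were not tested. It reached 20 points in 20 members.

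The 5 largest rises among members whose groups did not overlap came to 24.0 to 32.2 percentage points. In chr12:19612001-19613000, 8722 nucleotides from the placed start of Actl6b, a subunit of the neuronal BAF chromatin remodeler, methylation was 59.8%, 33.6% and 77.5% in iron-sufficient and 91.7%, 90.9% and 84.8% in iron-deficient pups. The rise of 32.2 points had an unadjusted p of 0.00508 and an adjusted p of 1 (edgeR). In chr20:44071001-44072000 the values were 77.6%, 20.99% and 81.6% against 99.2%, 88.0% and 87.7%. In chr3:148473001-148474000 they were 37.6%, 63.4% and 77.6% against 90.1%, 86.9% and 85.7%. Because a tile had to reach a pooled level of 80%, a tile with low iron-sufficient values could be a member only with high iron-deficient ones, so the narrow range of the latter is set by the choice. In chr5:36405001-36406000 the values were 87.5%, 35.1% and 71.7% against 89.4%, 95.5% and 92.4%, and the nearest placed start was that of Prdm13, a neural transcription factor, 23836 nucleotides away. In chr6:20494001-20495000 they were 81.0%, 45.3% and 80.9% against 95.1%, 93.1% and 90.8%. Iron-sufficient replicate 2 was the lowest sample in 4 of the 5. Without it, the rises were 20.5 points in chr12:19612001-19613000, 12.04 in chr20:44071001-44072000, 29.9 in chr3:148473001-148474000, 12.8 in chr5:36405001-36406000 and 12.1 in chr6:20494001-20495000.

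The 5 largest falls came to 16.4 to 26.4 points and rested less on that library. By the same limit of 80%, a tile with low iron-deficient values could be a member only with high iron-sufficient ones. In chr11:5846001-5847000 methylation was 100%, 98.1% and 95.2% in iron-sufficient and 85.3%, 51.0% and 77.9% in iron-deficient pups, at only 4.83 reads per CpG and sample. In chr20:14065001-14066000 it was 86.2%, 97.8% and 95.2% against 69.9%, 78.8% and 66.1% (edgeR, unadjusted p = 0.00423, adjusted p = 1). In chr10:45131001-45132000 it was 97.8%, 100% and 96.8% against 83.0%, 75.3% and 72.8%. The tiles on chromosomes 11 and 10 had under 5 CpGs with reads in all 6 samples and were not tested. In chr5:169715001-169716000, 3963 nucleotides from the placed start of the cilium gene Nphp4, values were 87.3%, 99.7% and 89.2% against 68.0%, 70.1% and 80.3%. In chr5:148353001-148354000, 2638 nucleotides from that of Yars1, the tyrosyl-tRNA synthetase, they were 94.5%, 90.2% and 85.5% against 85.5%, 65.7% and 70.1%, and the nearest values of the groups were equal when rounded (85.53%). Without iron-sufficient replicate 2, the falls were 15.4 to 26.2 points. These 10 tiles were chosen for their differences, so the values are a description, and none had an adjusted p below 1.

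**Figure D5:**
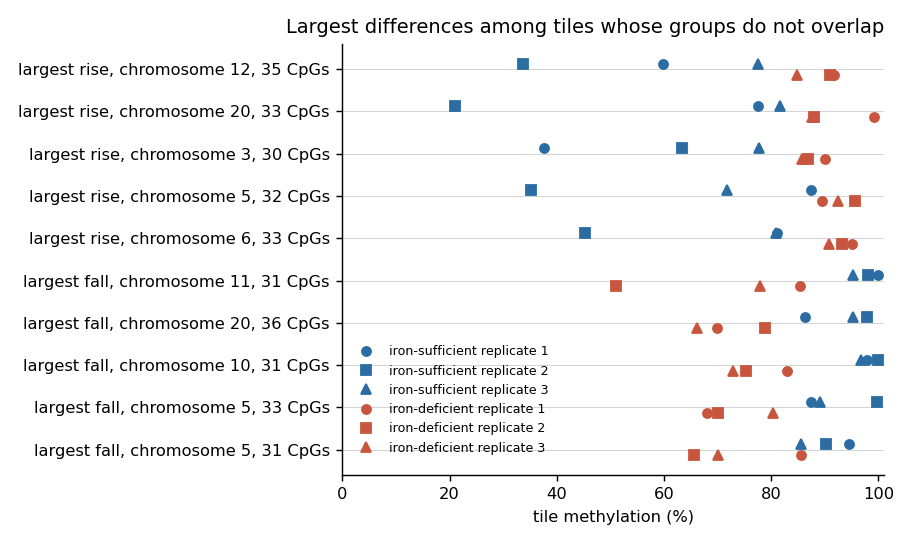
Tile methylation (%) in each animal for the 5 largest rises and 5 largest falls among members whose diet groups do not overlap, with 1 row per tile. Blue symbols are iron-sufficient and red symbols iron-deficient replicates. Iron-sufficient replicate 2 (blue squares) lies between 20.99% and 63.4% in the 5 rises.

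Where the range over the 6 animals was widest, 1 library was likewise the lowest in most cases. In 306 members the highest and lowest sample lay at least 30 points apart, and iron-sufficient replicate 2 was the lowest in 172 of them (56.2%). It lay at least 30 points below all other samples in 32 members, against 0 to 8 for the other libraries. Without it, 112 members had such a range, and leaving out another library instead left 234 to 286. Of the 5 widest ranges, it was the low value in chr20:44071001-44072000 (above), chr14:89844001-89845000 (25.6%, others 70.7% to 98.1%), chr7:22838001-22839000 (30.6%, others 73.9% to 93.9%) and chr13:64115001-64116000 (33.8%, others 76.9% to 97.04%). The fifth, chr9:5796001-5797000, was at 36.1% in iron-deficient replicate 2 and at 94.5% to 100% in the others, with 10.3 reads per CpG and sample. This library's lower coverage of member CpGs, given above, moves with these ranges, and its part in them was not tested.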

How the data were processed

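Hippocampal DNA of 6 rat pups, 3 per diet group, was analyzed by WGBS. The authors trimmed adapters, aligned reads to rn4 with BS Seeker, counted each overlap of a read pair once and merged both strands of a CpG. Per the labels, bcl2fastq was also used. The deposited tables list per CpG a methylated fraction (0 to 1) and the coverage as raw read counts, not normalized, smoothed or pooled. Removal of duplicate reads, and whether positions start at 0 or 1, are not given in the sources used here, so a start may be off by 1. Samples were grouped by their labels. Without molecular identifiers, reads may be copies of 1 molecule, so the errors given for read counts cover counting only. These errors also take the CpGs of 1 read as independent, so they can be too small where a read covers several CpGs.

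Methylated reads were fraction times coverage, which differed from a whole number by less than 0.01 throughout. They were summed in 1 kb tiles with Python 3.11.15, numpy 2.4.6 and pandas 2.3.3. Pooled levels of samples were compared by exact permutation tests, all two-sided. Tiles with at least 50 reads and 5 CpGs covered in every sample were tested with edgeR 4.0.16 (glmQLFit and glmQLFTest, R 4.3.3, common dispersion, a term per sample, Benjamini-Hochberg adjustment), with limma 3.58.1 on log2((methylated + 1)/(unmethylated + 1)) as an alternative. Both were tested on simulated data. Alternatives varied the limits of the rule, the grid, the weighting, coverage filters and the samples used. Normalization between libraries does not apply to methylation levels. Chromosome X was kept out of the comparisons, except in the search for places outside members with a shared run of CpG distances.

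The members, lists and tests were chosen with earlier results of these data known. The tiles named in the text are the 5 with most CpGs, the 5 with highest coverage per CpG, the 3 longest runs, the 5 largest rises and falls among members whose groups do not overlap, the 5 widest ranges, the 3 nearest the limit on each side and the 5 largest groups sharing a run of CpG distances. The rule named no genes. Genes and the germ cell list were added after values were seen, and megabases were picked for their counts of members. Promoter sequences are from RefSeq (GRCr8), and no coordinate was converted between builds.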

Additional observations from a re-analysis of the deposited data

Results flagged for a closer look

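Chromosome X was in no comparison, except that the places outside members with a shared run of CpG distances were searched for there too. There, 288 of 17813 usable tiles met the rule of the members, and in them each iron-deficient value was above each iron-sufficient one. They were at 89.8%, 89.9% and 90.7% in iron-sufficient and at 91.2%, 91.4% and 90.7% in iron-deficient replicates 1, 2 and 3. The means were 90.1% ± 0.515 and 91.1% (91.11%) ± 0.343 (SD, n = 3 each), and the nearest values of the groups were 90.73% and 90.74%. The difference was 0.970 percentage points (two-sided exact permutation test, p = 0.1, the smallest that 3 against 3 allows). On chromosome X, CpG-poor methylated tiles differed by 0.893 points (exact permutation p = 0.6), intermediate CpG-dense tiles by 2.71 (exact permutation p = 0.2) and unmethylated ones by -0.142 (exact permutation p = 0.8). The sex of the pups is not given in the labels, and its part in these values was not tested.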

How the results depend on the processing

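The difference of the members between the diets kept its sign under all 15 alternatives (other limits, grid, weighting, coverage filters and libraries), from 0.657 to 1.04 percentage points. Its difference from the CpG-poor methylated tiles was -0.0605 points and turned to 0.0669 with at least 40 CpGs, and it ranged from -0.290 to 0.332 with 1 library left out, being above 0 without iron-sufficient replicate 1 (0.307) and without iron-deficient replicate 2 (0.332). No member was called under any of the 11 alternatives of the tile-wise test. limma gave 171 members at an unadjusted p under 0.05 instead of 344, of which 130 instead of 258 were higher and 41 instead of 86 lower. The share of members that were higher was 2.81% against 1.97% of all tiles in edgeR and 1.42% against 2.55% in limma, so its order against the background was turned. With 1 library left out, 66 to 158 members were lower at that p, the highest without iron-sufficient replicate 1, where 221 were higher. Of all tiles 2.12% were then lower, against 1.72% of members, and 1.73% higher, against 2.41% of members. Leaving out a library raised the share of members whose groups did not overlap to 11.5% to 13.7% (higher, with 10.6% to 11.9% of all tiles) and 6.85% to 8.40% (lower, with 7.75% to 9.77% of all tiles), since 3 against 2 samples overlap less often. Left-out libraries gave log2 coverage ratios of -0.107 to -0.0878 to intermediate and -0.50 to -0.47 to unmethylated tiles, and a neighbour difference of 0.357 to 0.418 points, all at p = 0.0625 (exact permutation), the smallest 5 samples allow. The neighbour difference was 0.0587 points at a distance of 2 tiles and 0.0677 for the preceding tile only. This alternative and the coverage ratios without the 5% of highest coverage in both classes were chosen after seeing the data. The count of members with a range of at least 30 points, 306, was 112 without iron-sufficient replicate 2, an alternative chosen after seeing the data. Same-numbered samples did not deviate together over the members (correlations of -0.0235, -0.00112 and 0.00148), so the numbers were not taken as pairs. With the replicate block the difference between diets was 0.885 points (exact permutation p = 0.25, the smallest 3 pairs allow), 0 members were called and 328 had an unadjusted p under 0.05 (3.58%, against 2.79% of all tiles). In members, counting error with the CpGs of a read taken as independent was a median SD of 1.06 points. The median SD between animals was 4.58 points.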
